A study of Arabidopsis thaliana with 21 samples.

Results

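The GA2OX genes of Arabidopsis thaliana encode gibberellin 2-oxidases, enzymes that inactivate gibberellins. The group described here holds 7 genes of the 27789 in the data: GA2OX1 (AT1G78440), GA2OX2 (AT1G30040), GA2OX3 (AT2G34555), GA2OX4 (AT1G47990), GA2OX6 (AT1G02400), GA2OX7 (AT1G50960) and GA2OX8 (AT4G21200). They were chosen by locus, by a rule that uses no measured value, and are read by 10 of the 35986 probe sets: 2 for GA2OX2, 3 for GA2OX8 and 1 for each of the others. Probe sets of 1 locus were averaged, and all 7 genes were measured on all 21 arrays. Close paralogs can share probe signal, and probe sequences were not used here.

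Gibberellins are the hormones that promote germination and early growth, against abscisic acid, which holds the seed dormant. Cells make active gibberellins with GA20OX and GA3OX enzymes and remove them, or their precursors, with GA2OX enzymes, which add a hydroxyl group that makes the molecule inactive. GA2OX1, GA2OX2, GA2OX3, GA2OX4 and GA2OX6 act on the active hormones and their direct precursors, whereas GA2OX7 and GA2OX8 act on earlier precursors that carry an additional carbon. Active gibberellin binds a GID1 receptor, and the complex leads to breakdown of the DELLA proteins, the repressors of the response.

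The study followed wild-type Col-0, with no mutant, transgene or applied hormone, on its way from seed to light-grown seedling. The 7 stages are the mature dry seed (DS), the seed imbibed for 6 h (6H), testa rupture (TR), radicle protrusion (RP), the first root hairs (RH), greening cotyledons (GC) and fully opened cotyledons (OC). Seeds were kept wet in the cold for 72 h at 4 °C before constant white light at 22 °C. The labels do not state from when the 6 h was counted. Each stage has 3 arrays, described as biological replicates from seed pools of several plants, and RNA came from whole seeds or seedlings. Values are log2 RMA levels. Array medians over all probe sets lay between 5.18 and 5.69, and precision is limited by how few arrays there are.

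Markers of the dry seed, root hair and green cotyledon moved with the stages. All 4 dry-seed markers fell at TR against 6H, and 3 of 4 root hair markers rose at RH over RP. All 4 green cotyledon markers were higher at OC than at DS. Endosperm and seed coat markers were mixed. At OC against DS, 1 of 4 endosperm markers was lower, and 1 of 5 seed coat markers was higher with none lower. DS replicate 2 and OC replicate 2 stood apart when each array was correlated, across genes, with the mean of the other arrays of its stage. Their correlations were 0.984 and 0.986, against 0.99 to 0.997 for the other 19 arrays. Leaving both out changed no count of GA2OX genes given here.

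Over the whole series, GA2OX6 and GA2OX2 varied, and the other 5 genes stayed near the lower end of the array's signal. A gene was called changed over the 7 stages at a Benjamini-Hochberg adjusted p under 0.05 in limma's F test where its highest and lowest stage mean also lay 1 log2 unit or more apart. By this rule 2 of the 7 genes changed, beside 66.4% of all genes. GA2OX6 had a range of 3.32 (9.99-fold between its highest and lowest stage, adjusted p = 1.5e-13), wider than that of 87.2% of all genes. Its lowest stage, 6H, lies near the signal floor, which limits the size of this range. GA2OX2 had a range of 1.66 (3.17-fold, adjusted p = 1.6e-06), close to the middle of all genes at the 56th percentile.

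**Figure D1:**
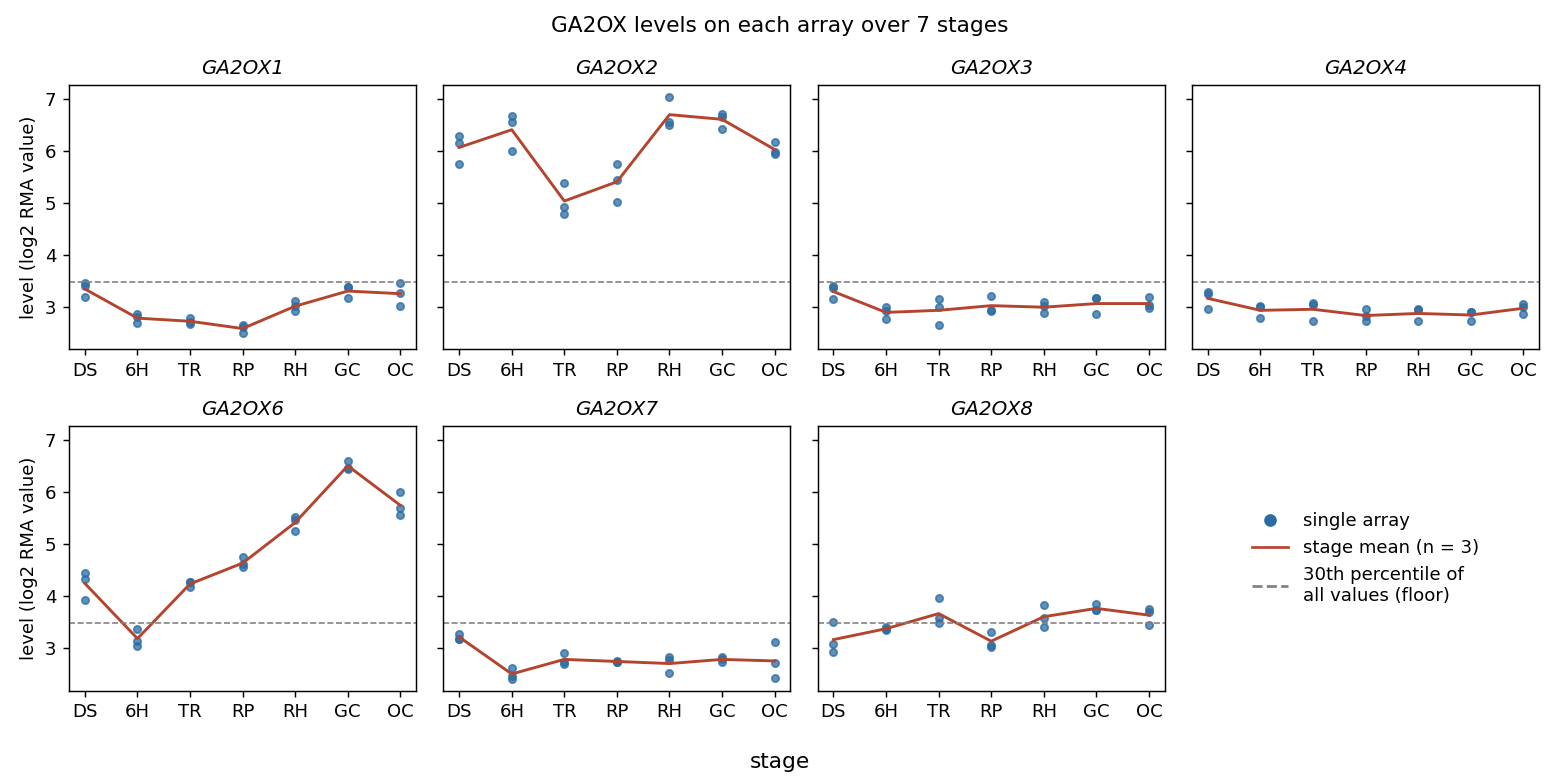
Level (log2 RMA value, vertical axis) of each GA2OX gene at the 7 stages in time order. Points are single arrays, the line joins stage means (n = 3) and the dashed line at 3.47 is the 30th percentile of all values. GA2OX6 dips at 6H and is highest at GC, GA2OX2 dips at TR and RP, and GA2OX1, GA2OX3, GA2OX4 and GA2OX7 stay under the dashed line at every stage mean.

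GA2OX6 fell early, lay near its dry-seed level again at testa rupture, and was highest in seedlings with greening cotyledons. GA2OX6 had levels of 4.44, 3.93 and 4.33 on the DS arrays, 3.13, 3.37 and 3.03 at 6H, and 4.17, 4.26 and 4.26 at TR. It then had 4.56, 4.61 and 4.74 at RP, 5.46, 5.24 and 5.52 at RH, 6.45, 6.44 and 6.60 at GC, and 5.99, 5.55 and 5.68 at OC. Ordered by stage mean, GC came first, then OC, RH, RP, DS, TR and 6H. The array values of DS and TR overlapped, with means of 4.24 ± 0.27 and 4.23 ± 0.05 (SD, n = 3), and those of all other neighbours in the order were separate. Since RNA came from whole seeds and seedlings, fewer cells expressing a gene and less of its RNA per cell cannot be told apart here.

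GA2OX2 was high in seeds, low while the testa and endosperm were breached, and high again at the root hair stage. GA2OX2 had levels of 6.15, 6.28 and 5.74 at DS, 5.99, 6.66 and 6.55 at 6H, and 4.79, 4.92 and 5.38 at TR. It then had 5.43, 5.01 and 5.75 at RP, 6.55, 6.50 and 7.03 at RH, 6.42, 6.65 and 6.71 at GC, and 5.97, 6.17 and 5.93 at OC. The stages fell into an upper set (RH, GC, 6H, DS and OC, in order of mean) and a lower set (RP and TR). Neighbours overlapped within each set, and OC and RP, the neighbours across the gap, did not in the average of the 2 probe sets. In AT1G30040.1_at alone OC and RP overlapped (5.64 to 5.93 and 4.91 to 5.71). In AT1G30040.2_at they were separate (6.1 to 6.4 and 5.11 to 5.8).

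The 6 steps between consecutive stages, and the span between DS and OC, were compared with 1 limma fit over all 21 arrays. In each comparison a gene was called at an adjusted p under 0.05 and a change of at least 2-fold, and the change is the later minus the earlier stage. Neighbouring steps share the arrays of 1 stage, so a high or low array there enters both. Of 49 changes, 7 for each gene, 6 were called, all in GA2OX2 and GA2OX6. The shares of all genes called are given with each comparison below. They ran from 0.766% (lower at RP against TR) to 23.1% (higher at OC against DS).

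**Figure D2:**
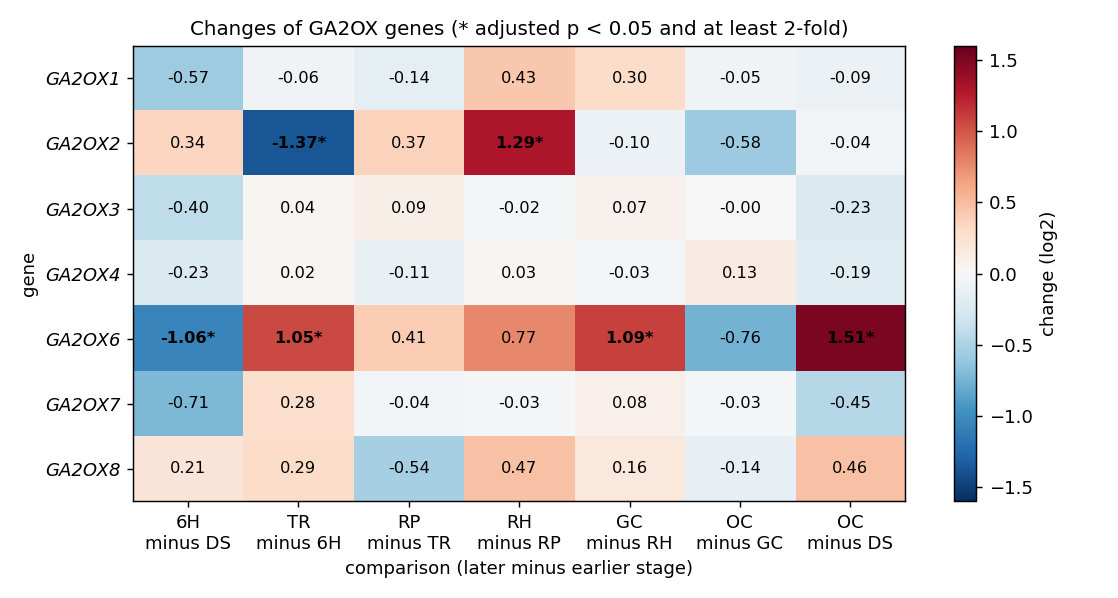
Change (log2, later minus earlier stage) of each GA2OX gene (rows) in each of the 7 comparisons (columns), with the value printed in each cell and an asterisk on the 6 called changes. Red cells are higher and blue cells lower at the later stage. The asterisks lie in the rows of GA2OX2 and GA2OX6 alone.

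In the first step, from dry to imbibed seed, GA2OX6 was the 1 called gene of the group. It fell to 3.18 ± 0.18 at 6H, which is near the signal floor, against 4.24 ± 0.27 at DS (SD, n = 3 each). The change was -1.06 ± 0.14 (SE) on the log2 scale, or 2.08-fold lower, with an adjusted p of 1.4e-06. None of the 7 genes rose and 1 fell, beside 14.6% of all genes called higher and 10.7% called lower. This call lies at the 2-fold limit: the change was -0.96 without DS replicate 1 and -0.99 without 6H replicate 3, both under 2-fold. GA2OX2 had a change of 0.34 with an adjusted p of 0.16, and its 6H and DS arrays overlapped. In this step 2 of 4 dry-seed markers fell, with sums of 41.64 to 43.5 at 6H and 45.89 to 46.37 at DS. For SESA4, 1 of them, the call was lost after a further quantile normalization (-0.95). Of 4 endosperm markers 1 rose, with sums of 25.72 to 26.15 at 6H and 23.61 to 24.86 at DS. The part of these tissues was not tested.

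Scaling moved the comparisons with the dry seed. With each array centred on the median of all genes, 8.84% of genes were called higher and 22.2% lower at 6H than at DS. With arrays centred on 8 reference genes, the shares were 9.22% and 20.9%. The change of GA2OX6 kept its direction and its call under both, and GA2OX7 then passed the 2-fold limit downward too.

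At testa rupture GA2OX2 and GA2OX6 moved in opposite directions. GA2OX2 fell by 1.37 ± 0.21 (SE) on the log2 scale at TR against 6H (2.58-fold, adjusted p = 1.8e-05), and its 3 TR arrays lay below its 3 6H arrays. GA2OX6 rose by 1.05 ± 0.14 (2.08-fold, adjusted p = 2.5e-06) over a 6H level near the floor, with separate arrays. Thus 1 gene of 7 rose and 1 fell, beside 9.8% of all genes called higher and 7.34% lower. The change of GA2OX6 dropped under 2-fold without 6H replicate 3 (0.98), with array weights (0.96) and after a further quantile normalization (0.82).

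The fall of GA2OX2 at TR came with changes of seed tissue markers. Of 4 endosperm markers, EPR1, a cell wall protein gene of the endosperm, and MAN7, a mannanase gene, fell, and 1 marker rose. Their summed level on single arrays was 24.96 to 25.53 at TR and 25.72 to 26.15 at 6H, with 1 of the 4 near the floor at TR and 2 at 6H. The 4 dry-seed markers summed to 22.45 to 24.3 at TR and 41.64 to 43.5 at 6H. Of 5 seed coat markers, 1 rose and 4 lay near the floor at TR. The part of these tissues in the GA2OX2 change was not tested.

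Between TR and RP no GA2OX gene was called, beside 2.34% of all genes higher and 0.766% lower. GA2OX6 stood at 4.63 ± 0.09 at RP and 4.23 ± 0.05 at TR, a change of 0.41 with an adjusted p of 0.055. By adjusted p under 0.05 with no fold limit, 0 GA2OX genes were higher and 1 was lower, beside 7.83% and 7.45% of all genes. GA2OX8 had the lowest adjusted p in this step, 0.02, with a change of -0.54, under 2-fold.

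At root hair formation GA2OX2 rose by 1.29 ± 0.21 (SE) on the log2 scale over its RP level, or 2.45-fold, with an adjusted p of 0.00012. Its 3 RH arrays lay at 6.50 to 7.03 and its 3 RP arrays at 5.01 to 5.75. GA2OX2 was the 1 gene of 7 called higher and none was called lower, beside 3.65% and 1.74% of all genes. GA2OX6 had a change of 0.77 (adjusted p = 0.00032) that stayed under 2-fold, with separate arrays. GA2OX1 had 0.43 (adjusted p = 0.0091) and GA2OX8 had 0.47 (adjusted p = 0.029).

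Markers of several tissues changed in the same step. EXPA7 and EXPA18, expansin genes of root hair cells, and COW1, a gene of root hair tip growth, rose, and the summed level of the 4 markers was 27.78 to 28.59 at RH and 15.97 to 17.43 at RP, with 0 of 4 near the floor at RH and 1 at RP. Of the 4 green cotyledon markers 2 rose, with sums of 39.47 to 39.77 at RH and 34.86 to 35.02 at RP. Of the 4 dry-seed markers 1 fell, EM1, with list sums of 15.78 to 17.09 at RH and 18.83 to 20.67 at RP. The EM1 change was -0.96 with arrays centred on reference genes, under 2-fold. Of the 4 endosperm markers 1 fell, with sums of 20.43 to 21.2 at RH and 23.35 to 23.57 at RP. None of 5 seed coat markers was called, and the part of these tissues in the GA2OX2 and GA2OX6 values was not tested.

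GA2OX6 rose again when the cotyledons turned green. It stood at 6.50 ± 0.09 at GC and 5.41 ± 0.15 at RH (SD, n = 3 each), a change of 1.09 ± 0.14 (SE) or 2.13-fold with an adjusted p of 1.4e-05. It was the 1 gene called higher and none was called lower, beside 2.6% and 0.972% of all genes. GA2OX2 had 6.60 ± 0.15 at GC and 6.69 ± 0.29 at RH, and the arrays overlapped. The 4 green cotyledon markers, genes of photosynthesis, summed to 41.53 to 41.99 at GC and 39.47 to 39.77 at RH with none near the floor, and 1 of them rose. Of the 4 dry-seed markers 2 rose, SESA4 and EM1, with list sums of 17.34 to 21.85 at GC and 15.78 to 17.09 at RH. Both lay near the floor at RH, and both calls were lost after a further quantile normalization (0.95 and 0.91). Of 4 endosperm markers 1 fell, with sums of 19.47 to 20.99 at GC and 20.43 to 21.2 at RH. The part of these tissues was not tested.

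No GA2OX gene was called between GC and OC, beside 5.41% of all genes called higher and 3.02% lower. GA2OX6 lay lower at OC by -0.76 (adjusted p = 0.00024) and GA2OX2 by -0.58 (adjusted p = 0.042), both under 2-fold, and in both genes the OC arrays were separate from the GC arrays. By adjusted p under 0.05 with no fold limit, 0 genes of the group were higher and 2 lower, beside 16.1% and 17.9% of all genes.

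From end to end, GA2OX6 was the only 1 of these 7 genes called, higher at OC than at DS. It stood at 5.74 ± 0.23 at OC and 4.24 ± 0.27 at DS, a change of 1.51 ± 0.14 (SE), or 2.84-fold, with an adjusted p of 4.4e-09. Thus 1 of 7 genes was higher and none lower, beside 23.1% of all genes higher and 21.6% lower. With arrays centred on the median of all genes, 17.1% of genes were called higher and 37.5% lower, and the change of GA2OX6 was 0.97, under 2-fold. GA2OX2 had 6.02 ± 0.13 at OC and 6.06 ± 0.28 at DS, a change of -0.04. The 95% interval of that change ran from -0.48 to 0.40. GA2OX7, near the floor at both stages, had -0.45, and -0.30 after a further quantile normalization (adjusted p = 0.043), both under 2-fold.

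GA2OX1, GA2OX3, GA2OX4 and GA2OX7 had all 7 stage means under 3.47, the 30th percentile of all values, which serves here as the signal floor. Their stage means spanned 2.58 to 3.34 in GA2OX1, 2.89 to 3.29 in GA2OX3, 2.83 to 3.16 in GA2OX4 and 2.50 to 3.21 in GA2OX7. At such levels background can make up much of the signal, and no order of the stages is read from it. Neither expression nor its absence is shown by these values.

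Low genes as a class drifted between DS and 6H. Of all genes, 4550 had every stage mean under the floor, and their median change at 6H against DS was -0.4, with 2456 lower by adjusted p alone. After a further quantile normalization that median was -0.04 and the number lower was 359. GA2OX1 had a change of -0.57 in this step (adjusted p = 0.00024), GA2OX3 had -0.40 (0.013), GA2OX4 had -0.23 and GA2OX7 had -0.71 (0.00011). All 4 values lay inside the 5th to 95th percentile of the low genes, -0.72 to -0.03, with GA2OX7 close to its lower end. After the further quantile normalization GA2OX7 had -0.39 with an adjusted p of 0.015, and the adjusted p was 0.15 in GA2OX1, 0.93 in GA2OX3 and 0.19 in GA2OX4.

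GA2OX1 had changes above the 5th to 95th percentile of the low genes at RH and at GC. Its levels were 2.91, 3.01 and 3.10 at RH and 2.61, 2.49 and 2.64 at RP, with separate arrays. Its change of 0.43 exceeded that of 99.1% of the 4550 low genes in the step, whose 5th to 95th percentile was -0.21 to 0.25. After the further quantile normalization it was 0.39 with an adjusted p of 0.02. In the next step, GC against RH, GA2OX1 had 0.30, above that of 95.2% of the low genes, with separate arrays and no call. After the further quantile normalization this GC change was 0.19 with an adjusted p of 0.3. The RH and GC changes were the highest ranks among the 4 low GA2OX genes and 7 comparisons, so they were picked from many values.

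**Figure D3:**
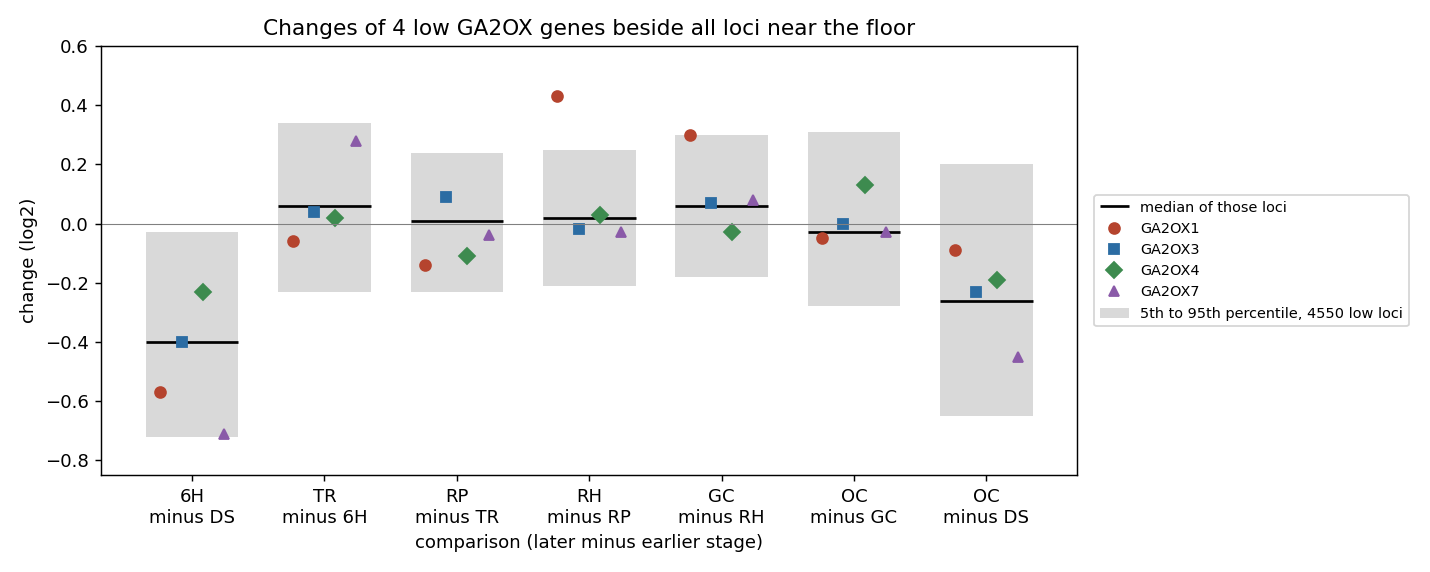
Change (log2, later minus earlier stage, vertical axis) of GA2OX1, GA2OX3, GA2OX4 and GA2OX7 in the 7 comparisons. Grey bars run from the 5th to the 95th percentile of the 4550 genes with every stage mean under the signal floor, and black lines mark their median. The grey bar of the first comparison is shifted down to a median of -0.4, and GA2OX1 lies above the bar at RH minus RP.

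GA2OX8, one of the pair that act on earlier precursors, lay about the floor, with stage means of 3.13 at RP to 3.76 at GC. It had levels of 3.06, 3.30 and 3.02 at RP, against 3.95, 3.58 and 3.47 at TR, and 3.41, 3.57 and 3.82 at RH. The RP arrays lay below those of both neighbouring stages. Its F test had an adjusted p of 0.0023 and its range of stage means, 0.63, stayed under the limit of 1. At OC it lay 0.46 above DS (adjusted p = 0.0096), under 2-fold, and the change was -0.07 with arrays centred on their median gene.

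The separate probe sets of GA2OX2 and GA2OX8 showed where averaging hid a difference. Probe sets are called models here by the number in their IDs alone. For GA2OX2, models 1 and 2 had changes of -1.40 and -1.34 at TR against 6H, and 1.37 and 1.22 at RH against RP. They differed on the whole span, with changes of -0.48 and 0.40 at OC against DS, so the flat end-to-end value averages opposite signs. The OC and DS arrays were separate for model 1 (5.64 to 5.93 and 5.99 to 6.42). They overlapped for model 2 (6.1 to 6.4 and 5.5 to 6.14). For GA2OX8, model 1 had a change of 0.74 at RH against RP, and models 2 and 3 had 0.27 and 0.40. At OC against DS model 1 had 0.90, and models 2 and 3 had 0.13 and 0.37. Model 1 had stage means of 4.03 to 4.24 at TR, RH, GC and OC, above the floor, so the statement that GA2OX8 lay about the floor holds for the average of the 3. The difference between probe sets was not tested.

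**Figure D4:**
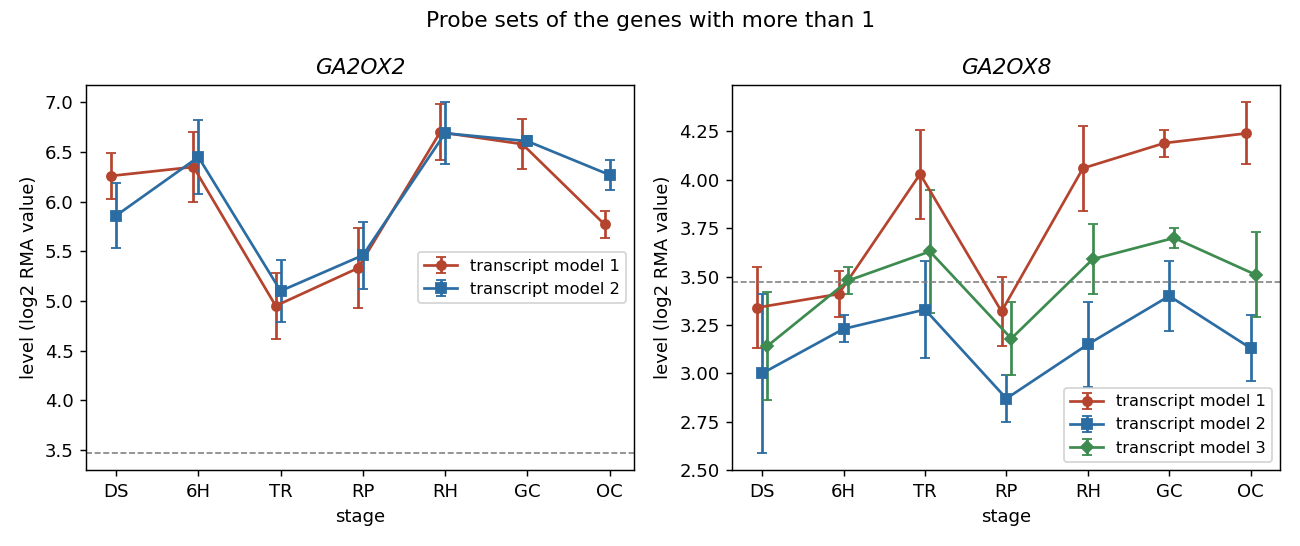
Level (log2 RMA value) of each probe set of GA2OX2 (left) and GA2OX8 (right) over the 7 stages, as mean and SD of 3 arrays, with the signal floor of 3.47 dashed. The 2 lines of GA2OX2 run together through the dip at TR and part at DS and OC, and GA2OX8 model 1 lies above models 2 and 3 from TR to OC at each stage mean.

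The genes most like GA2OX2 and GA2OX6 were sought by Pearson correlation over the 21 arrays among the 18462 other genes that changed over the 7 stages. The arrays share stages, so these values describe the stage profiles and carry no test. GA2OX6 was most like AT5G44910 (r = 0.983), TPX2 (AT1G03780, a microtubule protein of the mitotic spindle, r = 0.974) and AT3G15518 (r = 0.974). GA2OX2 was most like AT4G16680 (r = 0.894), AT2G28440 (r = 0.888) and HCAR (AT1G04620, a reductase of chlorophyll b conversion, r = 0.832). Between the 2 genes themselves r was 0.32 over the 21 arrays.

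Beside these 7 genes, 41 others of gibberellin metabolism, signalling and regulation were followed, all measured. At 6H against DS, 11 of the 41 rose and 5 fell, beside 14.6% and 10.7% of all genes. At TR against 6H, 1 rose and 10 fell, beside 9.8% and 7.34%. At OC against DS, 10 rose and 13 fell, beside 23.1% and 21.6%, and with each array centred on its median gene 6 rose and 16 fell. At RP, RH, GC and OC against the stage before, the numbers that rose were 0, 1, 0 and 1. Of all genes, 2.34%, 3.65%, 2.6% and 5.41% were called higher. The numbers that fell were 2, 4, 1 and 2, beside 0.766%, 1.74%, 0.972% and 3.02% of all genes.

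Several synthesis genes had larger changes on imbibition than any of the 7 GA2OX genes of the group in the 7 comparisons. At 6H against DS, 3 of 4 GA3OX genes rose, and the list's median change was 3.97 beside -0.23 over all genes. GA3OX2, which makes the active hormone, had 10.55 ± 0.04 at 6H and 3.44 ± 0.39 at DS, a change of 7.11. GA3OX1, of the same function, had 8.64 ± 0.34 at 6H and 3.15 ± 0.28 at DS. In both genes the DS level was near the floor, so the size of the change is limited by it. Of 5 GA20OX genes, which make the direct precursors, GA20OX3 rose in this step, with 7.59 ± 0.24 at 6H and 6.14 ± 0.32 at DS.

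After 6H the synthesis genes fell at different stages. GA20OX3 fell by 3.51 on the log2 scale at TR against 6H and lay near the floor from RP on. GA3OX1 fell by 1.98 and GA3OX4 fell by 2.29 at TR, the step in which GA2OX2 fell too. GA3OX2 fell by 2.22 at GC against RH, the step in which GA2OX6 rose, and by 1.22 at OC against GC. GA20OX1 was called in none of the 7 comparisons. GA20OX2 was higher by 1.04 at OC than at DS, a call lost with arrays centred on their median gene (0.51) and after further quantile normalization (0.63). Of 5 early synthesis genes, GA1, for the first step of the pathway, fell by 1.38 to a level near the floor at TR, and KAO1 fell by 1.04 at RH, a change of -0.95 with arrays centred on reference genes. All but GA1 were lower at OC than at DS, with the largest fall, 2.84, in GA3, an oxidase gene of the pathway.

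**Figure D5:**
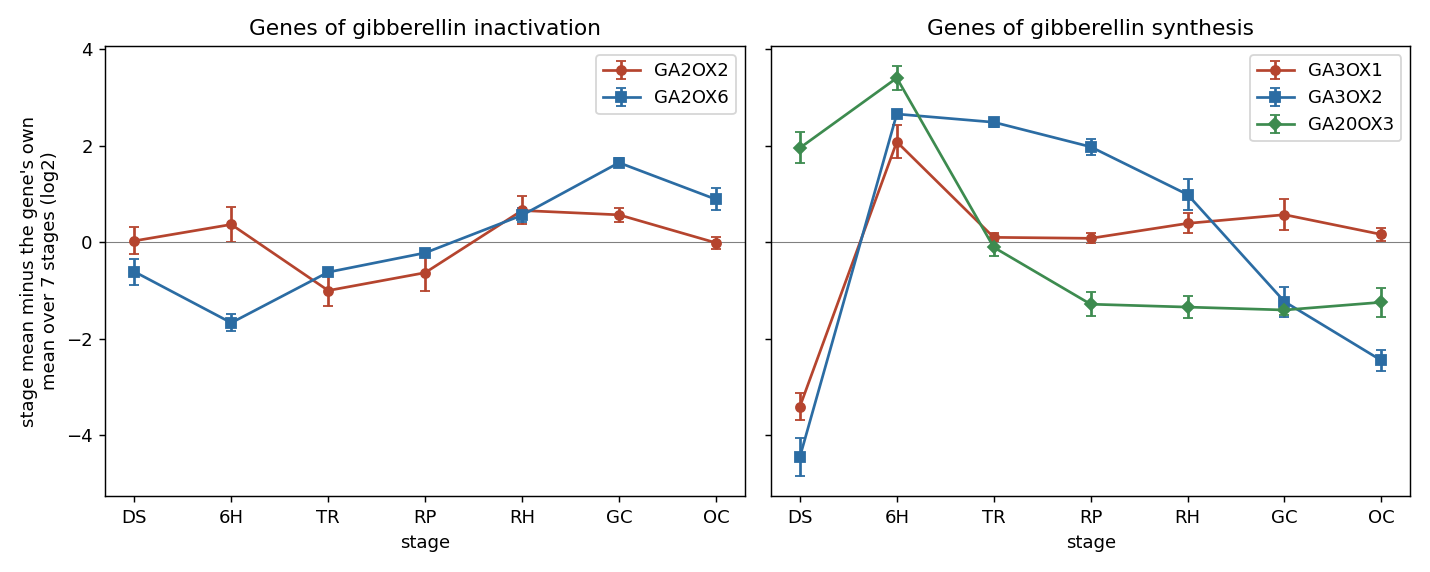
Stage mean minus the gene's own mean over the 7 stages (log2, vertical axis) with SD bars (n = 3), for GA2OX2 and GA2OX6 (left) and for the synthesis genes GA3OX1, GA3OX2 and GA20OX3 (right). The vertical axes are shared, and the synthesis genes span more of it than the GA2OX genes. GA2OX6 is lowest at 6H, the stage at which all 3 plotted synthesis genes are highest. Of the GA3OX and GA20OX genes not plotted, GA3OX4 also had its highest stage mean at 6H. GA20OX1 had it at TR, GA20OX2 at OC, GA20OX5 at GC, and GA20OX4 and GA3OX3 at DS.

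Among 7 other genes on the inactivation list, AT5G58660 fell in the same first step as GA2OX6. It had 3.15, 3.06 and 3.52 at 6H, near the floor, and 6.76, 6.45 and 6.52 at DS, a change of -3.33 with an adjusted p of 6e-13. The list used here names it GA2OX9, a gene outside the group of 7, and the reference table gives it no symbol. Its stage mean was 4.29 at OC and 6.58 at DS. ELA1 (AT5G24910), a cytochrome P450 gene that inactivates gibberellins, fell by 1.74 at 6H and by 2.18 at TR, and CYP72A9, another P450 gene, fell by 1.47 at TR, both to levels near the floor at TR. None of the 7 rose in any of the 7 comparisons, and the gibberellin methyltransferase genes GAMT1 and GAMT2 were called in none.

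Of 10 signalling genes, 4 rose and 2 fell at 6H against DS, beside 14.6% and 10.7% of all genes. The receptor genes GID1A and GID1C fell by 2.34 and 1.55, and the DELLA genes GAI, RGA, RGL1 and RGL2 rose, RGA the furthest, by 2.81. GID1B, the third receptor gene, had 5.73 ± 0.26 at TR and 3.39 ± 0.24 at 6H, rose by 1.07 at RH, and ended 4.64 above DS at OC. Its levels at DS and 6H lay near the floor, which limits the size of the first and last of these changes. RGL2, the DELLA gene best known from seeds, fell by 1.88 at RH against RP, the step in which GA2OX2 rose. RGL3, another DELLA gene, was lower by 3.40 at OC than at DS. SLY1 and SNE, the F-box genes for DELLA breakdown, were called in no comparison.

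The last list held 10 regulators tied to GA2OX genes in Arabidopsis. PIF1, a light-labile transcription factor, and SOM, a zinc finger protein gene under PIF1, favour GA2OX2 expression in dark-held seeds. SOM fell at 6H, TR and RP, by 1.29, 1.85 and 1.71, and rose by 2.11 at OC against GC, while GA2OX2 fell at TR and rose at RH. PIF1 fell by 1.65 at OC against DS and was called in no single step. Its rise of 0.96 at 6H (adjusted p = 4.8e-05) and fall of 0.92 at TR (adjusted p = 0.00011) stayed under 2-fold. Over the 7 stage means PIF1 and GA2OX2 had a Pearson r of -0.29, and SOM and GA2OX2 had -0.09, with stages as points and no test.

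AGL15, a MADS factor that activates GA2OX6 in embryo tissue, was called in no comparison, with stage means of 4.54 at RP to 5.42 at 6H. Its r with GA2OX6 over the 7 stage means was -0.23. SPT, a bHLH factor of seed dormancy, rose by 3.11 at 6H and fell by 1.08 at OC against GC, a change of -0.87 with arrays centred on reference genes. It ended 2.41 higher at OC than at DS. DAG1, a Dof factor that represses germination, fell by 1.23 at TR. It was higher by 1.44 at OC than at DS (adjusted p = 3e-07), a change of 0.91 with arrays centred on their median gene.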

How the data were processed

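The deposited values are log2 levels per probe set. They were made with RMA (background correction, quantile normalization, 1 summary value per probe set), per the submitters' processing notes, with no version given in the sources used here. The array platform and the probe set annotation are not given in the sources used here, and no coordinates are printed. All sample columns of the table were used. Of its 35986 probe sets, 215 with identical values for different loci were left out, and the others were averaged to 27789 loci. Names came from a RefSeq table of assembly TAIR10.1, which holds 27175 of them.

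Samples were grouped by stage, from their titles. All 21 arrays entered 1 fit in limma 3.58.1 under R 4.3.3, which estimated the mean of each stage without a replicate block and left 14 residual degrees of freedom. Tests were 2-sided, with Benjamini-Hochberg adjustment over all loci. The fit was tested on simulated data. The signal floor was the 30th percentile of all values (3.47).

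All 7 GA2OX genes are named in every comparison. From each other list the largest called rise or fall may be named, with a few fixed genes such as GA3OX1, PIF1 and AGL15, and for each varying GA2OX gene the 3 loci most like it. RGA, RGL1, GAI, GA3OX4, GAMT1, GAMT2, SLY1 and SNE were added to these after their values were seen. The GA2OX group, defined by locus alone, and the other lists were chosen as subjects with earlier results of these data known. Alternatives changed the scaling, the filter, the variance model, the probe set rule, the fold limit, the replicate block and the arrays included. No sequences are shown, since the tables used here hold none.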

Additional observations from a re-analysis of the deposited data

How the results depend on the processing

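Of 1540 values of single GA2OX changes under alternatives, 1521 stood on the same side of the call as reported, 6 lost the call and 13 gained it. Leaving out an array of a stage outside a comparison cannot move its change, so much of this count was fixed in advance. All lost calls were of GA2OX6: 2 at 6H against DS, 3 at TR against 6H and 1 at OC against DS. The sign turned in 44 values, none of them of a called change, where the change as reported was at most 0.46 in size. Centring each array on its median gene, or on 8 reference genes, gave 4 genes varying over the series (2 as reported). The shares of all genes that varied were 76.7% and 72.7%, beside 66.4% as reported. Both settings gave 2 genes changed at 6H against DS (1 as reported), with the shares of all genes given above. Median centring also gave 0 at OC against DS (1 as reported). At TR against 6H, 1 gene was called after a further quantile normalization and with array weights (2 as reported). Of all genes, 9.2% and 9.98% were then called higher, and 6.61% and 7.73% lower. With adjusted p alone and no fold limit, 5 genes varied over the series, beside 86.6% of all genes. The count at 6H against DS was 4, beside 29.6% of all genes called higher and 40% lower. It was 1 at RP against TR (7.83% and 7.45%) and 4 at RH against RP (11.5% and 11.9%). It was 2 at OC against GC (16.1% and 17.9%) and 3 at OC against DS (33.2% and 42.4%). Leaving out 1 array at a time gave 0 to 1 genes at 6H against DS (0 without DS replicate 1 or 6H replicate 3) and 1 to 2 at TR against 6H (1 without 6H replicate 3), and moved no other count. Leaving out both DS replicate 2 and OC replicate 2, chosen after seeing the data, moved none. The median change of all genes at 6H against DS was -0.23 as reported, -0.60 with median centring and -0.57 with reference genes, and at OC against DS it was -0.20, and -0.74 with median centring. With the replicate number as a block, 2 genes varied over the series and no call changed. No comparison had every same-numbered pair of arrays correlate above 0.1, once each gene's stage mean was taken off. With 3 arrays a stage such a check shows no pairing by number and cannot exclude it. A filter that kept genes above the floor on at least 3 arrays left 22934 genes and 3 of the 7, with the same calls. Probes near background and 3 arrays a stage limit the low genes.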
